A study of Solanum lycopersicum with 6 samples.

Results

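A stretch of tomato chromosome 4, covered by the gene identifiers Solyc04g076000 to Solyc04g077990, was described because many of its loci differed between the axillary buds of 2 cultivars. The expression table holds 179 loci with identifiers in this range. Of these, 35 had a mean below 1 FPKM over the 6 libraries and 2 (Solyc04g076850 and Solyc04g077210) were left out by the rule, so 142 members remained of 18802 loci tested and 25440 in the table. FPKM is the number of fragments scaled by transcript length and by library size. The stretch was picked from the same comparison of cultivars that is described here, so the count of differences within it is a description and not evidence about the stretch. Nothing in the table pairs an identifier with a gene name, and the members are therefore given by identifier and position.

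The buds came from greenhouse plants of the cultivars labelled monomaker and compound raceme, with 3 libraries each, prepared by a BGI500 protocol from Trizol-extracted RNA. Plant age and the number of plants per library are not given in the labels, and no label says that the 3 libraries of a group are from different plants; the spread that enters each p-value is therefore between libraries and may be technical. Directions are compound raceme relative to monomaker. A locus was called, and is said to have risen or fallen, where limma, fitted over all 18802 loci on log2(FPKM + 1), gave a Benjamini-Hochberg adjusted p below 0.05. That scale understates the change of low loci, so ratios of mean FPKM are given beside it.

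Axillary buds are the shoot meristems in the angles between leaf and stem, and they either stay dormant or grow out as branches. Identifiers of the Solyc series largely follow the order of genes along the chromosome, so neighbours in number mostly lie close together. By the coordinates in the table, Solyc04g076700 starts before Solyc04g076695, and Solyc04g077440 before Solyc04g077390, Solyc04g077420 and Solyc04g077430. Neighbouring plant genes can share an expression pattern where they arose by tandem duplication or lie in the same chromatin environment. Cultivars can also differ in a whole linked stretch, inherited as a block from another line, in which each gene carries its own regulatory variants. Which of these holds for the chromosome 4 stretch was not tested.

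Facts of the whole series bear on every value below. Summed FPKM per library ran from 674654 to 750250, and read counts were not given, so depth is unknown and no counting interval can be stated. For low values (0.3 to 1 FPKM) of library pairs, the commonest log2 ratio was at most 0.08 in size. The bin of that ratio held only 3.83% to 6.82% of the rows. FPKM is scaled by library size, so unchanged loci also give a small ratio, and depths cannot be compared from it. In a principal component analysis of loci outside chromosome 4, component 1 took up 56.5% of the variance. Monomaker 1 scored 9.94 on it, against 58.4 and 61.8 for monomaker 2 and 3. Compound raceme 1 to 3 scored -24.3, -52.3 and -53.6. Monomaker 1 thus stood apart from its group, towards compound raceme. Compound raceme 1 also stood apart from its group, towards monomaker, though less far. Tissue markers were taken from published locus assignments as recalled, which the sources used here do not pair. The bud markers BRC1B, which restrains bud outgrowth, its relative BRC1A, and LS and BL, which act in bud formation, summed to 14.5 to 43.8 FPKM in monomaker and 48.7 to 64.9 FPKM in compound raceme, and none of these 4 was called (LS was below the minimum for testing). BRC1B carried most of this sum, with 32.2, 27.2 and 11.5 against 53.9, 55.7 and 43.4 FPKM. BRC1A, LS and BL overlapped between the cultivars, and BL had a log2 difference of -0.31. The 4 markers of dividing cells (CDKB2, CDKB1, CYCB1-2 and CYCA1) all fell, summing to 130 to 225 against 16.2 to 33.9 FPKM. Of the 4 floral organ markers, TM29, TM5 and TPI fell and TAG1 was not called, and their sum was 14.2 to 17.0 against 2.49 to 3.71 FPKM. The 2 green tissue markers RBCS1 and CAB12 were not called (adjusted p = 0.153 and 0.0946) and summed to 734, 3746 and 5357 FPKM in monomaker 1 to 3 and to 270 to 761 FPKM in compound raceme. The part of these tissue differences in the values of the chromosome 4 stretch was not tested. In bulk buds, fewer cells of a type and less RNA per cell cannot be told apart.

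Within the stretch, 7 members were higher and 6 lower in compound raceme, 13 of 142 or 9.15%. Over all loci tested, 3.27% were called, 0.750% higher and 2.52% lower. In the rest of chromosome 4, 19 loci were higher and 30 lower, 49 of 1398 or 3.51%. The higher members differed by 0.90 to 2.80 on the log2 scale. Of the lower members, 5 differed by -0.91 to -1.85, and the other was listed at 0 throughout compound raceme. Of the 13, 10 had a mean level below 20 FPKM and the highest stood at 57.0 FPKM. The adjusted p of the 13 in the fit with all libraries ran from 0.00464 to 0.0451, and a further 16 members had an adjusted p between 0.05 and 0.1, 9 of them higher.

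**Figure D1:**
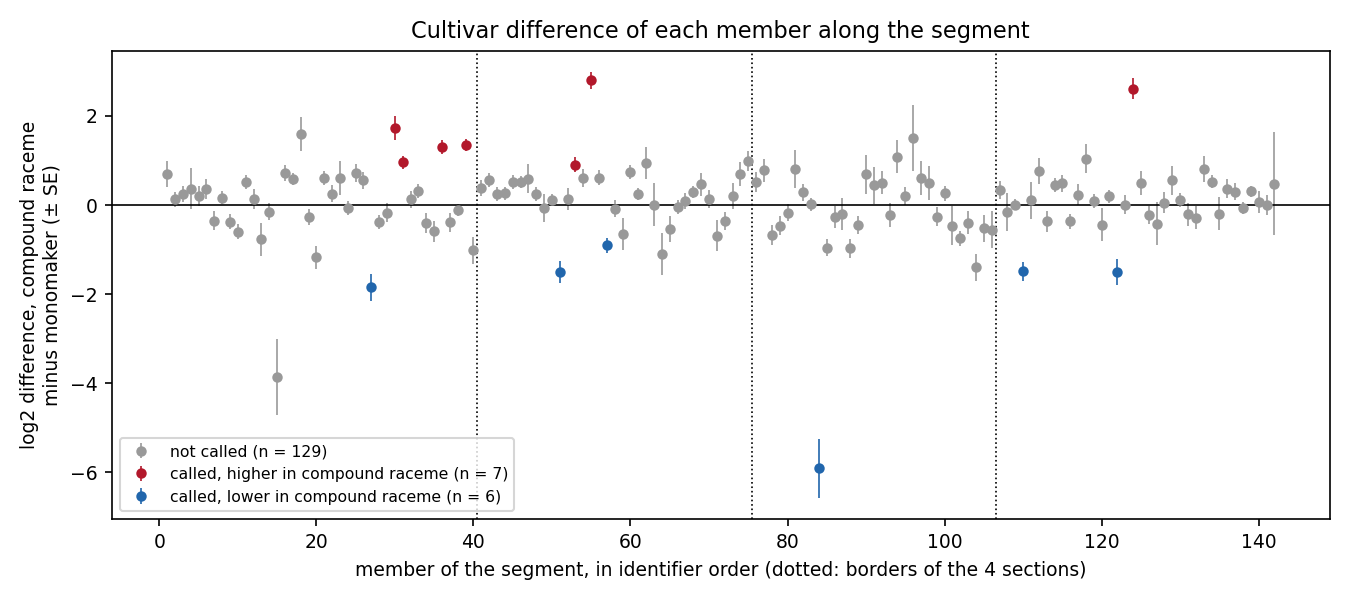
The log2 difference (compound raceme minus monomaker, ± SE from limma) of the 142 members is plotted in identifier order, with 7 called higher members in red and 6 called lower members in blue. Red and blue points are interspersed and most members lie near 0; dotted lines mark 4 sections of the identifier range, and the lowest points are Solyc04g077130 and Solyc04g076190, listed at 0 in compound raceme, whose plotted depth depends on the pseudocount.

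The member called with the lowest adjusted p was Solyc04g076700 (chromosome 4, 61665589 to 61690111 of SL3.0, plus strand). It had 1.35, 0.75 and 0.81 FPKM in monomaker 1 to 3 and 13.4, 13.4 and 11.2 FPKM in compound raceme 1 to 3. All compound raceme values lay far above all monomaker values, and the mean was 13.0-fold higher, with a log2 difference of 2.80 (SE 0.19, adjusted p = 0.00464). Its identifier neighbours Solyc04g076710 and Solyc04g076720, both below the minimum for testing, were listed at 0 in all monomaker libraries. In compound raceme 1 to 3, Solyc04g076710 had 1.01, 0.76 and 0.72 FPKM, and Solyc04g076720 had 0.58, 0.69 and 0.46 FPKM. These 3 successive loci were thus near or at 0 in monomaker and present in compound raceme; they were singled out after their values had been seen. The row of Solyc04g076700 that carries most of its signal spans a long interval and overlaps Solyc04g076695 (61670293 to 61696075, minus strand), so reads may be shared between these loci, and the sources used here do not say whether strand entered the counting. Solyc04g076695 had 3.30, 1.76 and 2.86 FPKM in the monomaker libraries, compared with 4.35, 4.65 and 4.37 FPKM in those of compound raceme (adjusted p = 0.140).

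The highest ratio of means belonged to Solyc04g077745 (chromosome 4, 62744528 to 62750436 of SL3.0, minus strand). Its values were 0.55, 0.38 and 0.16 FPKM in the monomaker libraries, compared with 9.50, 6.97 and 5.78 FPKM in those of compound raceme. The groups did not overlap and the mean was 20.4-fold higher, while the log2(FPKM + 1) difference was 2.61 (SE 0.23, adjusted p = 0.0184). Since the monomaker level was below 1 FPKM, that difference rested on the pseudocount and was 4.09 with a pseudocount of 0.1. Its neighbours Solyc04g077740 and Solyc04g077770 had log2 differences of 0.01 and 0.49 and were not called.

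A cluster of 4 called higher members lay within 83.6 kb, from Solyc04g076340 to Solyc04g076460 (61341252 to 61424878 of SL3.0). Solyc04g076340 had 10.4, 4.57 and 6.19 FPKM in the monomaker libraries, compared with 26.8, 24.4 and 22.4 FPKM in those of compound raceme, a log2 difference of 1.73 (SE 0.27, adjusted p = 0.0275). Solyc04g076360 (61353284 to 61359275, minus strand) had 6.11, 5.47 and 4.86 against 10.9, 11.6 and 12.2 FPKM, a log2 difference of 0.96 (SE 0.14, adjusted p = 0.0265). These 2 were the only called members that followed each other directly. Solyc04g076410 (61398241 to 61401921, minus strand) had 2.55, 2.51 and 2.47 FPKM in the monomaker libraries, compared with 7.43, 6.84 and 8.83 FPKM in those of compound raceme (log2 difference 1.30, SE 0.16, adjusted p = 0.0193). Solyc04g076460 (61418905 to 61424878, minus strand) had 6.11, 5.91 and 4.99 against 15.7, 16.4 and 16.0 FPKM (log2 difference 1.35, SE 0.14, adjusted p = 0.0193). The cultivars did not overlap at any of the 4, and the monomaker libraries lay close together at all but Solyc04g076340, where monomaker 1 was the highest. The cluster was not uniform, however. Of the 8 members between its outer loci, 6 were not called, 4 of these had a difference below 0, and the 6 ran from -0.59 to 0.32 on the log2 scale.

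The last called higher member, Solyc04g076670, was also the most abundant of the 13, with 47.2, 36.1 and 35.3 FPKM in the monomaker libraries, compared with 78.8, 77.1 and 67.4 FPKM in those of compound raceme. Its mean was 1.88-fold higher, a log2 difference of 0.90 (SE 0.16, adjusted p = 0.0404). The table gives no coordinates for it.

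Among the lower members, Solyc04g077130 had 18.1, 124 and 90.0 FPKM in monomaker 1 to 3, whereas each of the 3 compound raceme libraries lists it at 0 (adjusted p = 0.0193). Monomaker 1 was the lowest of its group here, yet it lay well above every compound raceme library. Solyc04g076190 showed the same listing, with 2.63, 49.2 and 15.8 FPKM in monomaker 1 to 3 and 0 in compound raceme, but it did not pass the test (adjusted p = 0.0630). It passed with a pseudocount of 0.5 or 0.1 (adjusted p = 0.0449 and 0.0255), without monomaker 1 (0.00670) and without both number-1 libraries (0.0164), and over all 15 alternative fits its adjusted p ran from 0.00670 to 0.205. No fold is given for this pair, since an exact 0 in a table without counts can also be a failed estimate. Solyc04g076640 was also nearly absent from compound raceme, with 1.48, 2.50 and 2.33 FPKM in the monomaker libraries, compared with 0.20, 0.03 and 0.03 FPKM in those of compound raceme. Its mean was 24.3-fold lower, and the log2(FPKM + 1) difference of -1.50 (SE 0.24, adjusted p = 0.0292) became -3.65 with a pseudocount of 0.1. It was also the member nearest above the minimum level, with a mean of 1.10 FPKM.

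The other 4 lower members kept a measurable level in both cultivars. Solyc04g076310 (61314108 to 61328852, plus strand) had 3.35, 8.15 and 5.88 FPKM in the monomaker libraries, compared with 1.11, 0.59 and 0.75 FPKM in those of compound raceme, a log2 difference of -1.85 (SE 0.30, adjusted p = 0.0314). For Solyc04g077540 (62583835 to 62591308, minus strand) the values were 9.42, 16.5 and 14.98 against 4.10, 4.17 and 4.04 FPKM, a log2 difference of -1.48 (SE 0.22, adjusted p = 0.0247). Its 3 compound raceme values were nearly equal, while monomaker varied more. Solyc04g077690 (62711067 to 62712545, minus strand) had 36.7, 27.1 and 30.5 against 14.96, 11.2 and 6.54 FPKM (log2 difference -1.50, SE 0.28, adjusted p = 0.0451). Solyc04g076780 (61740371 to 61746611, minus strand) had 16.7, 16.6 and 20.6 against 10.04, 7.49 and 9.91 FPKM (log2 difference -0.91, SE 0.17, adjusted p = 0.0430). With rows summed, the groups did not overlap in any of the 4. Of the 2 rows of Solyc04g076780, the one without coordinates carried the difference, with 14.1, 15.4 and 18.6 against 6.29, 5.94 and 7.76 FPKM. Its other row had 2.60, 1.23 and 2.03 against 3.75, 1.55 and 2.15 FPKM and overlapped between the cultivars. Of the 2 rows of Solyc04g077690, the one with coordinates had 22.52, 15.34 and 28.55 against 7.69, 5.54 and 2.89 FPKM. The one without coordinates had 14.22, 11.71 and 1.91 against 7.27, 5.61 and 3.65 FPKM and overlapped.

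**Figure D2:**
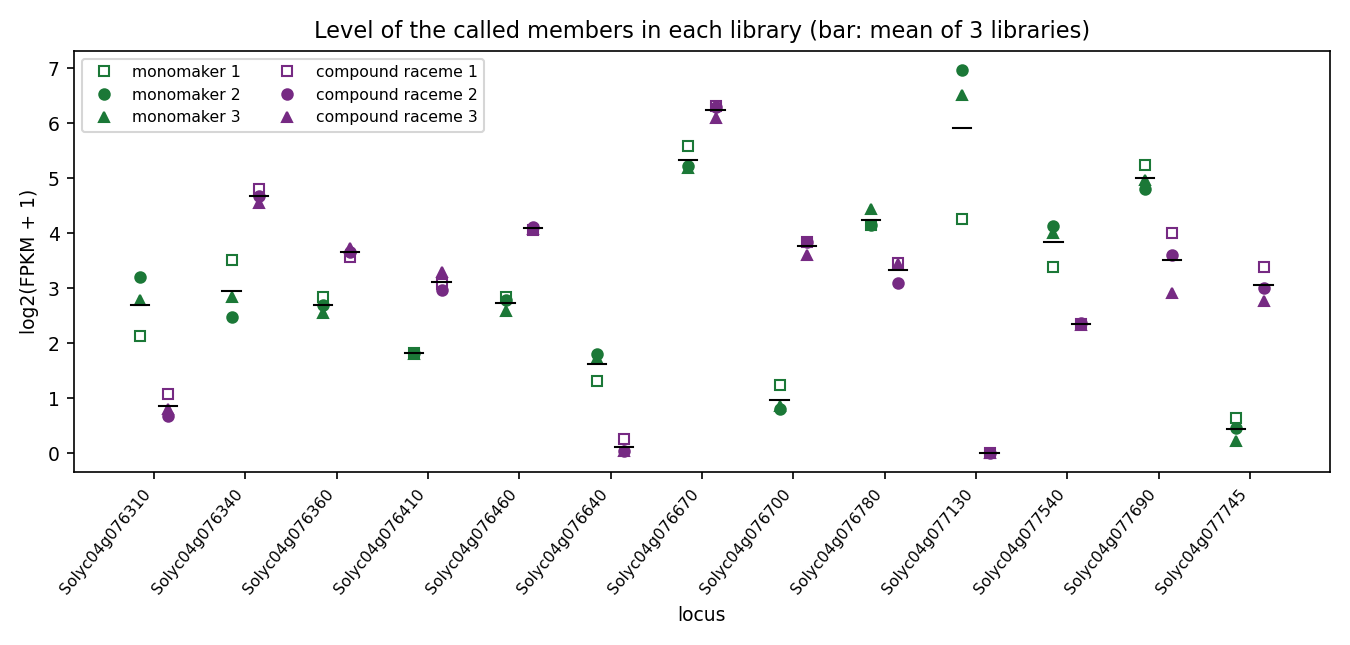
Each of the 13 called members is shown with log2(FPKM + 1) in the 3 monomaker (green) and 3 compound raceme (purple) libraries, in identifier order, with a bar at the mean. The cultivars do not overlap at any of them, and monomaker 1 (open green square) stays on the monomaker side at all 13.

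These calls depended on which libraries entered the fit. Leaving out compound raceme 2 left 0 of the 13 called. In each of the fits without monomaker 2, monomaker 3 or compound raceme 3, 1 of the 13 remained called, while 10 remained without compound raceme 1 and all 13 without monomaker 1. All 13 kept their direction in each of these fits. Over all loci the same 4 losses left 7 to 15 loci called, against 614 with all libraries. The authors' deposited q-value is given per row, and for members with 2 rows that of the row with the higher mean was taken. It was below 0.05 for 30 of the 142 members, 16 higher and 14 lower, and the 13 limma calls were all among them. At Solyc04g076560 the directions were opposite, with an authors' log2 ratio of -0.56 against 0.52 for the summed rows. Solyc04g076260 and Solyc04g076660 also passed, at authors' log2 ratios of 3.94 and 2.63, with summed log2 differences of 0.26 and 0.13. The authors' q-value passed for 21.1% of the members and 14.2% of the rest of chromosome 4, against 14.4% of all tested loci.

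Many members that did not pass the test still differed without overlap. At 57 of the 142 members (40.1%) the cultivars were separated without overlap, against 31.7% of all loci tested. Of these, 39 were higher (27.5%, against 16.4% of all loci) and 18 lower (12.7%, against 15.3%). A log2 difference of at least 1 in size was present at 19 members (13.4%, against 10.1%), 9 of them higher and 10 lower. Differences of that size were higher at 613 and lower at 1295 of all loci, and higher at 46 and lower at 75 of the rest of chromosome 4. An unadjusted limma p below 0.05 was found at 50 members (35.2%), against 25.7% of all loci.

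The most abundant members were not among the calls. Solyc04g077020 had 1404, 1132 and 1220 FPKM in the monomaker libraries, compared with 898, 727 and 735 FPKM in those of compound raceme, without overlap (log2 difference -0.67, SE 0.23, adjusted p = 0.136). Solyc04g077440, Solyc04g077970, Solyc04g077510 and Solyc04g076380 followed, with means of 194, 182, 157 and 156 FPKM over the 6 libraries and adjusted p from 0.246 to 0.993. Solyc04g076380 had 151, 127 and 136 against 192, 172 and 157 FPKM, without overlap, and the remaining 3 overlapped. The deposited interval of Solyc04g077440 (62376962 to 62441796) overlaps those of Solyc04g077330, Solyc04g077390, Solyc04g077420 and Solyc04g077430, so reads may be split among them. Solyc04g077980, the last member, varied widely within both cultivars, with 74.8, 3.31 and 39.5 FPKM in the monomaker libraries, compared with 54.0, 9.52 and 60.4 FPKM in those of compound raceme (adjusted p = 0.819). Level and size of the difference were unrelated over the 142 members, with a Spearman rho of -0.02 (0.03 over the rest of chromosome 4); the members share libraries, so this is a description.

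The direction of the differences leaned towards higher values in compound raceme, without being common to the stretch. Of the 142 members, 86 (60.6%) had a difference above 0 and 56 below. The share was 52.5% over the 1398 tested loci of the rest of chromosome 4 and 53.9% over all loci. The median log2 difference of the members was 0.14, against 0.03 for the rest of chromosome 4 and 0.04 for all loci, and the SD of that median between libraries was 0.10. The members' median was 0.24 without monomaker 1 and 0.09 without monomaker 3, against 0.09 and -0.02 in the rest of chromosome 4. The share above 0 in the rest came nearer to the 60.6% of the members in other fits, at 57.1% without monomaker 1 and 56.5% after quantile normalization. The median size without regard to sign was 0.45, against 0.30 in both. Within cultivars the members were slightly more variable, with a median SD of 0.27 on the log2 scale against 0.25 for the rest of the chromosome. No test of the difference between the stretch and the rest was made, because the stretch was chosen for its differences.

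Sections of the identifier range differed among themselves when it was divided into 4. In section 1, Solyc04g076010 to Solyc04g076470, 4 of 40 members were called higher and 1 lower, and 13 were higher and 6 lower without overlap. Section 2, up to Solyc04g076990, held the strongest lean, with 25 of 35 members (71.4%) above 0 and a median log2 difference of 0.25. There 14 members were higher and 3 lower without overlap, and 2 were called in each direction. Section 3, up to Solyc04g077490, leaned the other way, with 14 of 31 above 0, a median of -0.20, and 3 higher against 7 lower without overlap. It held 1 called member, the lower Solyc04g077130. In section 4, 24 of 36 members were above 0, with a median of 0.10, 1 called higher and 2 called lower. There 9 members were higher and 2 lower without overlap. Members without overlap made up 47.5%, 48.6%, 32.3% and 30.6% of sections 1 to 4, against 31.7% of all loci tested. Called members made up 12.5%, 11.4%, 3.23% and 8.33%, against 3.27% of all loci. Sections 3 and 4 were thus near the share of all loci without overlap, and section 3 near that of calls. The sections were set after the data had been seen, and no single direction ran through the whole stretch.

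Whether neighbours differed in tandem was read from pairs of successive members. Of 141 such pairs, 83 (58.9%) had the same sign. The proportions above and below 0 alone would give 52.2%. In the rest of chromosome 4, 688 of 1396 pairs (49.3%) had the same sign, where the proportions would give 50.1%. The Pearson correlation of the log2 differences of successive members was 0.12 (Spearman 0.18), against 0.01 (Spearman 0.04) in the rest of the chromosome. Over the 109 members with a mean of at least 5 FPKM, the same-sign share was 53.7% and the Pearson correlation 0.09. Some successive members, among them Solyc04g076900 and Solyc04g076910, have overlapping deposited intervals, so reads may be shared. Members 2 steps apart shared their sign in 50% of 140 pairs and those 3 steps apart in 45.3% of 139, shares close to those of the rest of the chromosome or below them. Among the 58 members with coordinates, put in SL3.0 order, 24 of 57 successive pairs (42.1%) had the same sign and the correlation was -0.13. These pairs skip the members without coordinates. They shared their sign in 12 of 24 pairs on the same strand and in 12 of 33 on opposite strands. Pairs share loci and libraries, so these shares and correlations are descriptions.

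**Figure D3:**
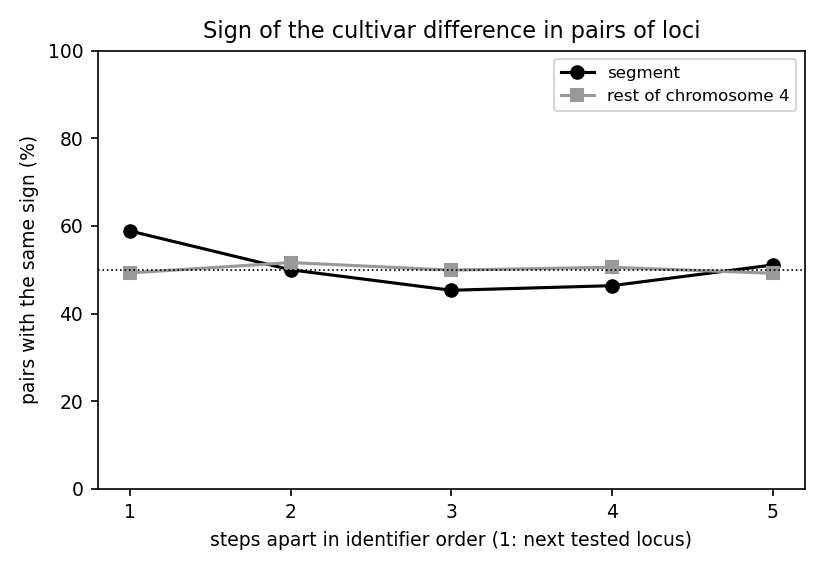
The share of pairs of loci whose cultivar difference has the same sign is plotted against their separation in identifier order, for the 142 members (black) and the rest of chromosome 4 (grey). The segment starts at 58.9% for direct neighbours and lies between 45.3% and 51.1% from 2 to 5 steps apart, while the rest stays between 49.2% and 51.7%.

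Called members shared their sign with direct neighbours about as often as not. The same count was not made for called loci of the rest of chromosome 4. The 13 called members had 26 direct neighbours, 12 of which had the sign of the called member and 2 of which were called themselves, being each other's neighbours. Both neighbours shared the sign at 4 called members and neither did at 5, among them Solyc04g076410, Solyc04g076460 and Solyc04g077540. In the only pair of successive members that both differed by at least 1 on the log2 scale, the signs were opposite. There Solyc04g076460 had 1.35 and Solyc04g076470 had -1.02, with 14.7, 10.1 and 10.6 FPKM in the monomaker libraries, compared with 4.28, 8.60 and 3.81 FPKM in those of compound raceme at the latter (adjusted p = 0.105).

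Longer runs of the same sign occurred in both directions. The signs of the 142 members formed 59 runs. The longest was 8 members, Solyc04g076500 to Solyc04g076580, all higher after rows were summed. Their log2 differences were 0.25 to 0.59, with 5 of them without overlap and 0 called. Within this run, the row of Solyc04g076560 with the higher mean was lower by the authors' log2 ratio (-0.56, authors' q = 0.0314). A run of 6 lower members extended from Solyc04g077130 to Solyc04g077190, with a median of -0.70, 4 without overlap and 1 called. Another run of 6 lower members, Solyc04g077440 to Solyc04g077490, had a median of -0.54 and no call. A run of 6 higher members opened the stretch, Solyc04g076010 to Solyc04g076060, with a median of 0.31, 0 without overlap and no call. Called members also stood in a run of 5 higher ones, Solyc04g076660 to Solyc04g076740, with a median of 0.62, 4 without overlap and 2 called. Inside the run from Solyc04g077130, Solyc04g077140 had 32.0, 22.7 and 20.6 against 11.1, 14.0 and 11.8 FPKM (adjusted p = 0.0538), and Solyc04g077170 had 9.80, 9.74 and 6.28 against 3.42, 3.41 and 4.76 FPKM (adjusted p = 0.0661). In the rest of chromosome 4 the longest run was 15 loci.

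Variation between libraries of the same cultivar does not use the comparison of cultivars. For each pair of successive members, the deviations from the cultivar means were correlated over the 6 libraries. The median correlation was 0.24 for direct neighbours and 0.13 for all other pairs of members. In the rest of chromosome 4 the median was 0.17 for direct neighbours. It was 0.10 for 195730 other pairs, which were limited to loci not far apart in identifier order. Direct neighbours thus had the higher median both inside and outside the stretch. With 6 libraries and 2 means removed, single correlations are loose, and no test was made.

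Set against blocks of 2000 identifier numbers along chromosome 4, the stretch had the highest share of calls among blocks with at least 50 tested loci, but not by a wide margin. The 13 other blocks had 0% to 8.57% of loci called, with a median of 2.88%, and at most 7 called loci. The adjoining block before the stretch, Solyc04g074040 to Solyc04g075000, held 5 higher and 1 lower call among 70 loci. Non-overlapping loci made up 24.7% to 39.2% of the other blocks against 40.1% in the stretch. Loci with a difference above 0 made up 48.2% to 59.4% against 60.6%. The stretch was chosen for its calls, so its rank is a description. Blocks hold different numbers of loci, from 56 to 145 among these.

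**Figure D4:**
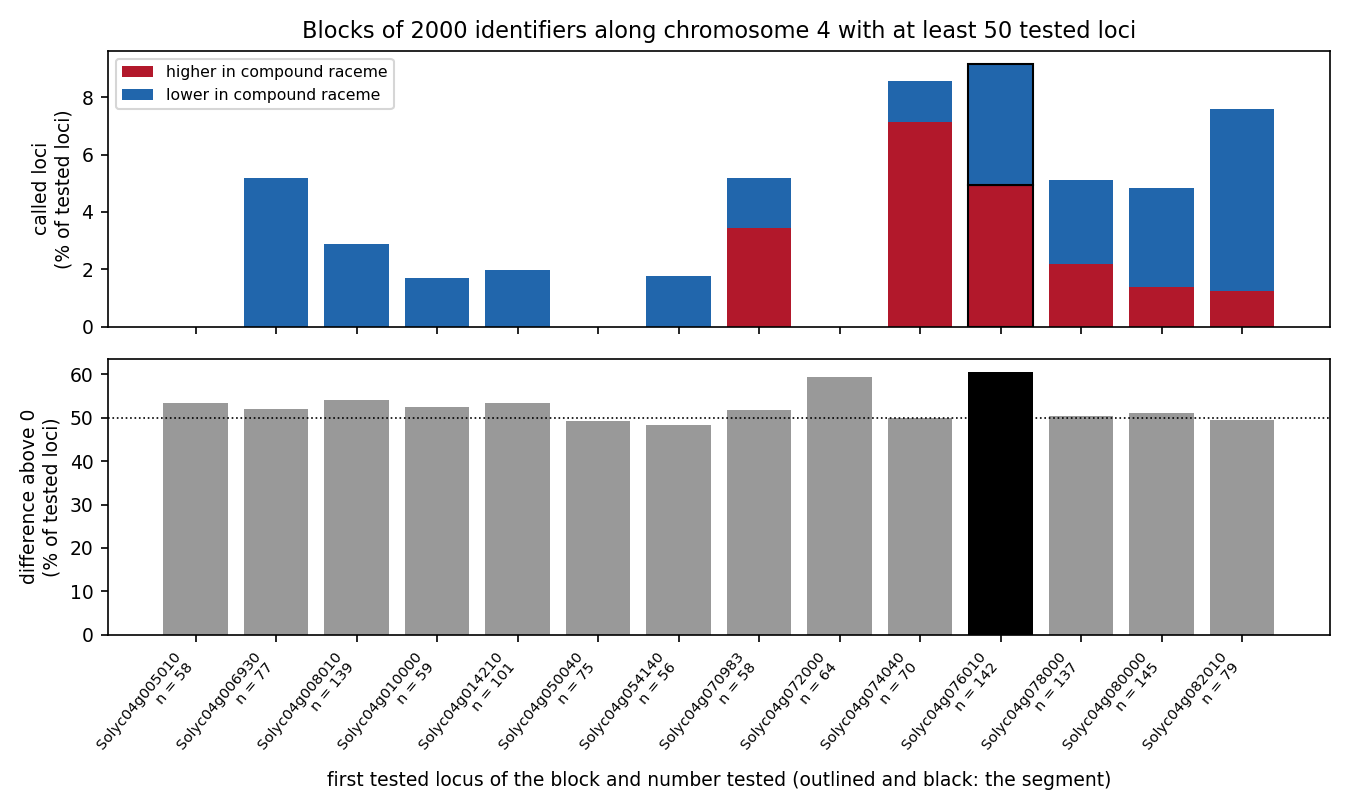
For the 14 blocks with at least 50 tested loci, the upper panel shows the percentage of loci called higher (red) or lower (blue) and the lower panel the percentage with a difference above 0, with the number tested under each bar. The outlined and black bars mark the 142 members, at 9.15% called and 60.6% above 0.

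The stretch has no sharp edge in these data. The last tested loci before it were Solyc04g074990 and Solyc04g075000, with log2 differences of -0.45 and -0.04, and Solyc04g074960, shortly before them, was called higher (0.91, adjusted p = 0.0454). The first members, Solyc04g076010 and Solyc04g076020, had 0.69 and 0.13 and were not called. After the last member the next loci were Solyc04g078000 and Solyc04g078010, with -0.37 and -0.04, neither called.

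The libraries numbered 1 gave a further view of the differences, because both stood apart from their groups over the genome. Monomaker 1 did so further than compound raceme 1, and the ratios below mix the shifts of both. With both number-1 libraries left out, leaving 2 against 2, 22 members were called, 12 higher and 10 lower, or 15.5%. The share was 9.37% in the rest of chromosome 4 and 10.2% of all loci. The difference between compound raceme 1 and monomaker 1 had the same sign at 21 of these 22 members, and at 17 (77.3%) it was at least 0.5 times as large as in the libraries numbered 2 and 3. In the rest of chromosome 4, the sign was shared at 107 of 131 such loci, and 36 (27.5%) reached 0.5 times. Over all loci the latter share was 28.2% of 1913. The median of this ratio was 0.67 in the stretch, 0.27 in the rest of chromosome 4 and 0.29 over all loci. The contrast was not seen among loci called with all 6 libraries, a choice that itself uses the number-1 libraries. There 12 of 13 members (92.3%) and 42 of 49 loci of the rest (85.7%) reached 0.5 times, and the median ratio was 0.70 in the stretch and 0.76 in the rest. Monomaker 1 lay nearer to monomaker 2 and 3 than to compound raceme 2 and 3 at 18 of the 22 members, and at 65 of 131 loci of the rest of the chromosome. Positions were also taken as a fraction of the way from compound raceme 2 and 3 to monomaker 2 and 3. The median for compound raceme 1 was 0.07 at the 22 members, 0.20 in the rest and 0.26 over all loci. For monomaker 1 it was 0.69, 0.49 and 0.57. The 1 member whose sign was not shared was Solyc04g076390, with 17.7, 27.0 and 26.0 FPKM in the monomaker libraries, compared with 22.1, 14.99 and 15.7 FPKM in those of compound raceme. The stretch was chosen with all 6 libraries in view, so these shares are not independent of the choice, and the difference between the stretch and the rest was not tested. All 13 members called with the full set of libraries were among the 22.

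**Figure D5:**
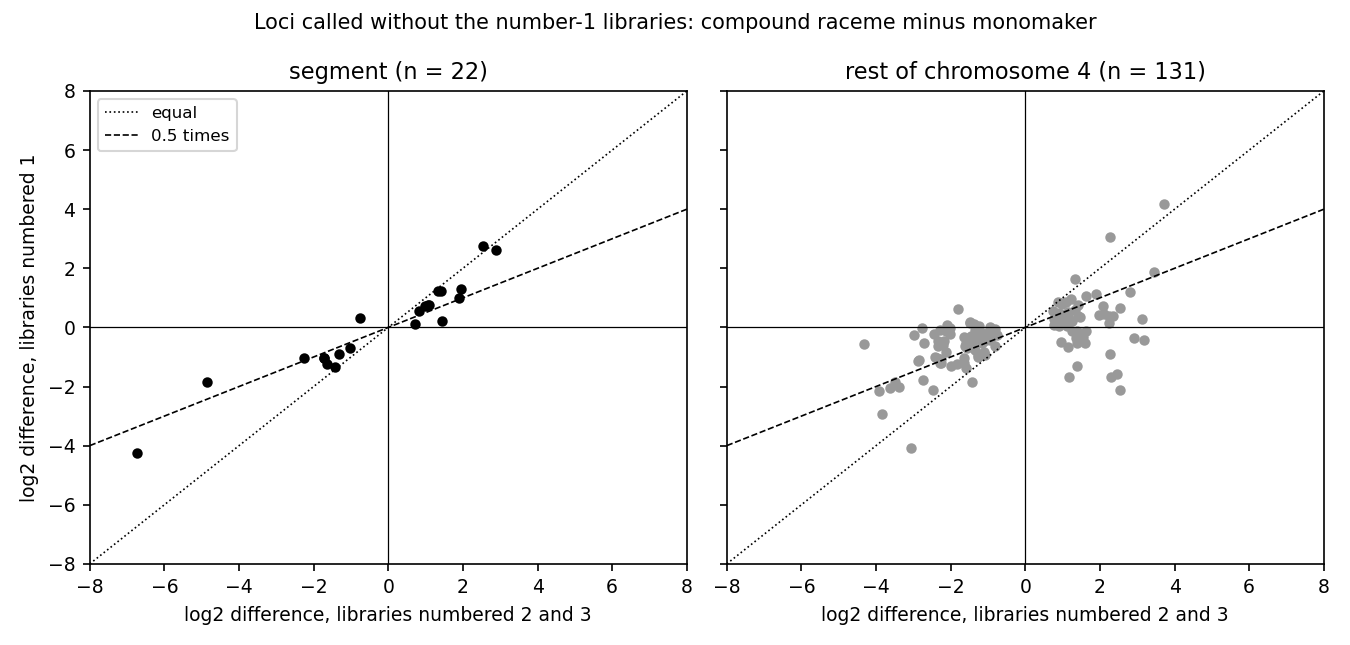
For loci called without the number-1 libraries, the log2 difference (compound raceme minus monomaker) between the libraries numbered 1 is plotted against that between the libraries numbered 2 and 3, with lines for equal and for 0.5 times the size. Of the 22 members (left), 17 lie at or beyond the 0.5 line in the same direction, against 36 of 131 loci in the rest of chromosome 4 (right).

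Positions and table rows complete the description of the members. Of the 142, 58 carry coordinates, which reach from 61109612 to 62885285 of SL3.0, or 1.78 Mb, with 28 on the plus and 30 on the minus strand. The table holds 2 rows, summed here, for 45 members (31.7%, against 28.8% in the rest of chromosome 4), and 7 of the 13 calls were among these 45. The 2 unnamed BGI transcripts within the interval had at most 1.39 FPKM and overlapped between cultivars.

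The 35 loci under the minimum had a median of 0.265 FPKM and are not members. At 8 of these 35 the cultivars did not overlap, 5 higher and 3 lower, which is a smaller share than the 31.7% of all tested loci. The share over all loci below the minimum was not computed. Besides the 2 successive loci beside Solyc04g076700, only Solyc04g076750 was listed at 0 in 1 cultivar and above 0 in every library of the other, with at most 0.09 FPKM in monomaker. Nearest below the minimum were Solyc04g077180 and Solyc04g076480, with means of 0.965 and 0.960 FPKM. Nearest above it were Solyc04g076640, described before, and Solyc04g077555, with a mean of 1.27 FPKM, values of 0.40, 2.53 and 0.78 against 0.61, 1.18 and 2.12 FPKM, and no call. Of the 2 loci left out by the rule, Solyc04g076850 had 259, 219 and 233 FPKM in the monomaker libraries, compared with 155, 114 and 117 FPKM in those of compound raceme (adjusted p = 0.0521), and Solyc04g077210 had 17.7, 6.19 and 4.17 against 0.08, 10.8 and 9.81 FPKM (adjusted p = 0.641). Including both would leave the counts of called members as they are.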

How the data were processed

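RNA of axillary buds was sequenced in 6 libraries, 3 per cultivar. The authors deposited FPKM values, rounded to 2 decimals, in a table of 31139 rows, with their own log2 ratio, p-value and q-value per row. The column headers give the ratio as BJ over WT. By the sample titles, BJ is compound raceme and WT is monomaker. How the ratio was computed, like the annotation release, is not stated. Tools named without a role in the submitters' processing notes are RSEM 1.2.12, DESeq2 1.4.5, HISAT2 2.0.4 and Bowtie2 2.2.5. Chromosome names are those of SL3.0.

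FPKM of the 5699 loci with 2 rows were summed. Loci averaging 1 FPKM or more over the 6 libraries were put on the log2(FPKM + 1) scale for limma 3.58.1 (R 4.3.3, intensity trend, cultivar as the only term), with Benjamini-Hochberg adjustment over all 18802 loci. On simulated data, 200 of 18802 loci were changed by 1 or 2 on the log2(FPKM + 1) scale. The same fit recovered 25% of the changes by 1 and 72% of those by 2, and 7.62% of its calls were unchanged loci. At low loci such changes are larger than 2-fold or 4-fold in FPKM. That noise was independent between loci, unlike real libraries. The rest of chromosome 4 means loci with Solyc04g identifiers outside the range.

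Named members are the called ones, those listed at 0 throughout 1 cultivar, the 5 of highest level, those next to the minimum level and the ends; others were named after their values were seen. No run of members differing by at least 1 on the log2 scale in the same direction was longer than 1. Members, lists and alternatives were chosen with earlier results of these data known. Alternatives tried were other pseudocounts, filters, normalization, rows as deposited, the replicate number as a block, and each library left out.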

Additional observations from a re-analysis of the deposited data

How the results depend on the processing

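The share of members above 0 stayed between 56.3% and 60.6% and their median difference between 0.09 and 0.24 under the fits tried, while the share in the rest of chromosome 4 ran from 48.9% to 57.1%. All 13 calls were kept with pseudocounts of 0.1 and 0.5, rows as deposited, quantile normalization, no intensity trend, without monomaker 1 and without both number-1 libraries. The fit of rows as deposited, read from the row of higher mean per locus, called 9 members higher and 7 lower. That was 11.3%, against 2.95% in the rest of chromosome 4. With no filter on low values, 10 were kept, and called members numbered 7 higher and 3 lower (7.04%). The rest of chromosome 4 then held 10 higher and 17 lower (1.93%). More loci entered the adjustment, and the cause of the change was not tested. With a minimum of 5 FPKM, 389 loci were called in all, 12 higher and 18 lower in the rest of the chromosome. The share called was 2.77% in the rest (3.51% in the main fit) and 2.72% of all loci (3.27%). Among members it was 9.17%. Fewer loci entered this fit, and the cause of the change was not tested. Without both number-1 libraries 1913 loci were called, with 12 higher and 10 lower members and 55 higher and 76 lower loci in the rest; the cause was not tested. On the same arm alone, from Solyc04g050040 on, the rest held 15 higher and 18 lower calls among 782 loci. The share called there was 4.22%, against 3.51% in all the rest of chromosome 4. By the authors' deposited q-value of the row with the higher mean, 16 members were higher and 14 lower, against 72 and 127 loci in the rest. In coordinate order, same-sign neighbours fell to 42.1% and their correlation to -0.13, over fewer members. With a minimum of 5 FPKM, same-sign neighbours were 53.7% and their correlation 0.09. Leaving out each library in turn gave 7 to 2025 called loci, 0 to 18 higher and 0 to 9 lower members, and 1 to 69 higher and 0 to 81 lower loci in the rest, the highest without monomaker 1; the cause was not tested.

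With the replicate number as a block, 0 loci were called in all, 0 of the members in either direction and 0 of the rest, while 4676 loci and 52 members had an unadjusted limma p below 0.05. The libraries share only a number: deviations of same-numbered libraries correlated at 0.03, 0.06 and 0.10 for numbers 1 to 3, and 3 of 6 libraries correlated best with their own number. Uncalled members of small difference changed sign when a library was left out. Over the 6 such fits Solyc04g077510 ran from -0.51 to 0.28 (0.047 without both number-1 libraries), Solyc04g077555 from -0.17 to 0.49, Solyc04g077970 from -0.13 to 0.22 and Solyc04g077980 from -0.75 to 1.32. Read counts were not given, so counting error at low FPKM could not be set beside these values.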
